A study of Mus musculus with 6 samples.

Results

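Neuroendocrine secretory genes encode what a peptide-secreting cell packs, cuts and responds to. The 10 genes described here are the granins Chga, Chgb, Scg2, Scg3, Scg5 and Vgf, the prohormone-processing enzymes Pcsk2 and Cpe, the neuropeptide gene Adcyap1 and the somatostatin receptor gene Sstr2. They were chosen by gene symbol, each matched 1 row of the 22001 genes in the count table, and all 10 had enough counts to be tested among 13560 genes. RNA-seq was done on mCherry-positive mouse neocortical cells at E14.5 (embryonic day), 24 h after in utero electroporation at E13.5. The 3 control libraries came from tissue given a plasmid for mCherry alone, and the 3 Insm1 libraries from tissue given a plasmid for Insm1 together with mCherry. Neither strain, sex nor promoter of the plasmids is given in the sources used here, and nothing says that the libraries of a group came from separate litters, so a p-value reflects only how far these libraries spread.

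Granins are acidic proteins of dense-core vesicles, the large storage granules from which hormones and neuropeptides are released on demand. Inside these vesicles convertases such as PC2, the product of Pcsk2, cut precursors after pairs of basic residues, and carboxypeptidase E, the product of Cpe, trims the basic residues left at the new ends. The zinc-finger protein Insm1 regulates transcription in neural progenitors and in developing endocrine cells, and several of these genes are widely used markers of endocrine cells and of tumours derived from them. In neurons many granin genes respond to cyclic AMP through a promoter element called the CRE, and some are held silent outside neurons by the repressor Rest, which binds a longer element called RE1.

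Promoter sequence was available for 8 of the 10 genes in RefSeq (GRCm38.p6), as 250 bases before and 50 bases after each start, and the stretches printed here show the elements that these 8 share. The CRE letters TGACGTCA, searched on both strands, were found in Chgb, Scg2 and Sstr2, which is 3 of 8 genes, against 1.79% of all 32851 promoters in the table. The shorter CRE core TGACG, which the CRE itself holds on both strands, was found in all 8 genes and in 20.8% of all promoters. Capitals mark the CRE or its core (CGTCA is the core on the other strand), and each line gives 30 bases of the gene's own strand, 5′ to 3′.
Chgb: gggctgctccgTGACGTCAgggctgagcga
Scg2: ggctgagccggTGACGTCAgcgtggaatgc
Sstr2: ccaagctgccgTGACGTCAcgggcgggggc
Chga: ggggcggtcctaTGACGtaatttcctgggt
Scg3: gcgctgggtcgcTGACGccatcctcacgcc
Adcyap1: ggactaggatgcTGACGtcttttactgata
Pcsk2: ctggcgggcgcgCGTCAcccgggctggcgc
Scg5: aaaggaggtaaaTGACGttcataggggtcg

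These stretches lie at chr2:132781559-132781588 (plus strand) for Chgb, chr1:79440076-79440105 (minus) for Scg2, chr11:113619258-113619287 (plus) for Sstr2 and chr12:102554885-102554914 (plus) for Chga. Those of the others lie at chr9:75684069-75684098 (minus) for Scg3, chr17:93198914-93198943 (plus) for Adcyap1, chr2:143546087-143546116 (plus) for Pcsk2 and chr2:113829249-113829278 (minus) for Scg5. In 3 genes the whole CRE began between 72 and 58 bases before the RefSeq start, at -72 in Chgb, -68 in Scg2 and -58 in Sstr2. In Chga the core began at -44, in Scg3 at -30, in Pcsk2 at -34, in Adcyap1 at -91 from the first of its RefSeq starts and in Scg5 at -175, with further cores at 20 and 41 bases past the Scg5 start. Starts differ between annotations, so that the Chgb and Scg2 elements fall inside the gene as GENCODE M21 draws it.

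The left arm of RE1, TTCAGCACC on either strand, was found in Scg2 and in none of the other 7 genes, against 0.371% of all promoters. In capitals it is given as it reads on the strand of the gene, and it spans the RefSeq start of Scg2, from -7 to 2. The 30 bases printed around it lie at chr1:79440014-79440043 on the minus strand.
Scg2, RE1 left arm: ggagctgtccGGTGCTGAAacggcccgagc
A loose form of the motif known for Insm1, TGNNNGGGGNC on either strand, was found in Scg5, beginning at -19, and in 7.14% of all promoters. A match of letters is a description of the sequence and no evidence that a factor binds there.

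**Figure D1:**
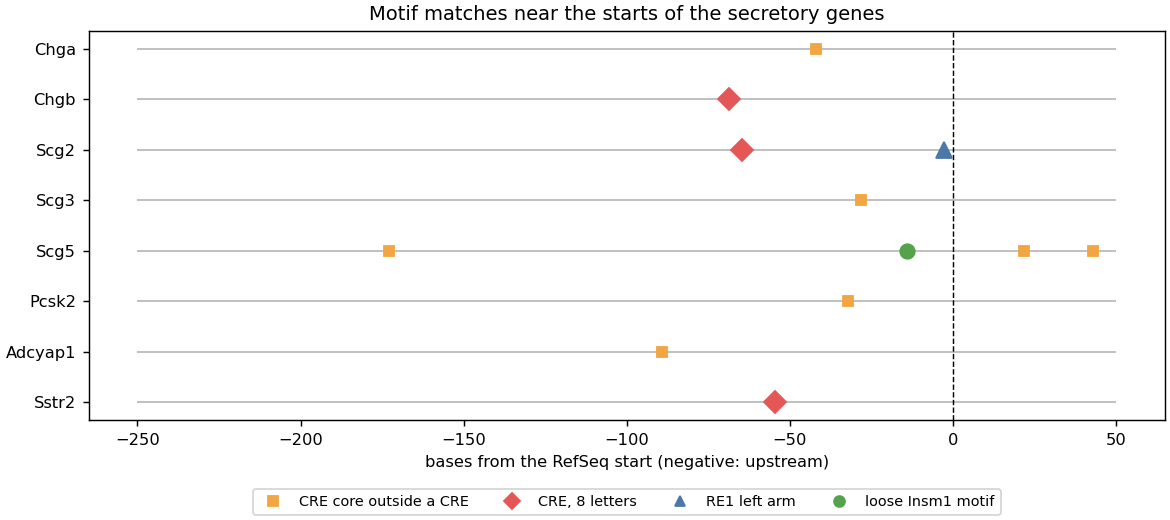
Positions of motif matches (markers) in bases from the RefSeq start for the 8 genes with a promoter entry; grey lines show the 300 bases searched, and for Adcyap1 the window of its first start is drawn. Each gene holds at least 1 CRE or CRE core, and the RE1 left arm lies at the start of Scg2.

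The targeted gene went with its labels. Insm1 was at 222, 331 and 371 CPM (counts scaled to library size by TMM) in control libraries 1, 2 and 3 and at 1570, 2173 and 1436 CPM in Insm1 libraries 1, 2 and 3, and these counts do not separate plasmid from chromosomal transcripts. Neocortical markers were present, with 8 projection neuron markers summing to between 6458 and 8117 CPM per library. Markers of interneurons summed to at most 16.3 CPM, of microglia to at most 59.3 CPM (in control 2), of vascular cells to at most 2.49 CPM and of meninges to at most 3.37 CPM. Erythroid markers were high in control 2 (5258 CPM) and in the Insm1 libraries (3497 to 4891 CPM) and lower in controls 1 and 3 (715 and 307 CPM). The 6 Cajal-Retzius markers ran the other way, at 34.3 CPM in control 2 and 35.3 to 51.4 CPM in the Insm1 libraries against 135 and 130 CPM in controls 1 and 3.

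Of the 10 secretory genes 4 rose with Insm1 and none fell. Those that rose were Adcyap1 (log2 fold change 1.09), Chga (0.75), Sstr2 (0.59) and Scg3 (0.32), at an adjusted p below 0.05 in edgeR's quasi-likelihood test. Of all 13560 tested genes 3.35% were called, 1.23% higher and 2.12% lower. In 5 of the 10 genes all Insm1 libraries lay above all controls and in none below, against 10.4% of all tested genes above, 11.8% below and 22.2% in either direction. The median log2 fold change of the 10 genes was 0.30, against -0.0090 over all tested genes, and 8 of the 10 were positive. At an unadjusted p below 0.05 in edgeR, Cpe and Scg5 were higher as well and 0 members were lower, against 7.56% of all tested genes higher and 9.69% lower. DESeq2 called 5 members higher and 0 lower, against 3.11% and 4.45% of the 13291 genes to which it gave an adjusted p. On the deposited TPM, limma with a pseudocount of 1 called Adcyap1 alone, with Chga at an adjusted p of 0.0791 and Sstr2 at 0.0903, and of 13462 genes it called 0.104% higher and 0.342% lower. The members were chosen with earlier results of these data known, so these counts describe them and do not test them as a set. In bulk samples fewer cells of a type and less RNA per cell cannot be told apart.

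**Figure D2:**
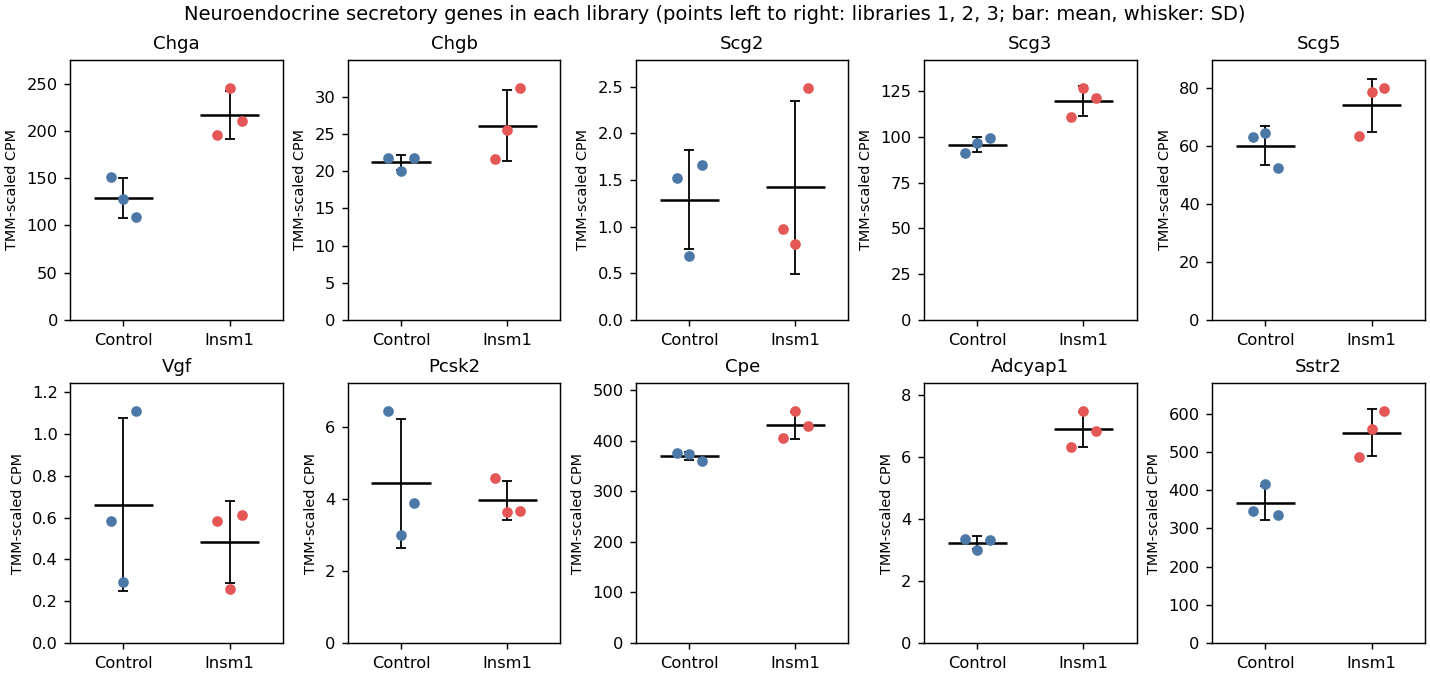
TMM-scaled CPM (vertical axes, each from 0) of the 10 genes in control (blue) and Insm1 (red) libraries; bars are means and whiskers SDs of 3 libraries. In Chga, Scg3, Cpe, Adcyap1 and Sstr2 the 3 Insm1 libraries lie above the 3 controls, and in the other 5 genes the groups overlap.

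Among the granins, Chga and Scg3 rose. Chga encodes chromogranin A, a granin that helps to form dense-core vesicles and is itself cut into several peptides. It was at 151, 128 and 108 CPM in controls 1, 2 and 3 and at 196, 245 and 210 CPM in Insm1 libraries 1, 2 and 3. Every Insm1 library lay above every control. The group means were 129 ± 21.3 and 217 ± 25.5 CPM (SD, n = 3), a 1.68-fold rise (log2 fold change 0.75, standard error 0.12, edgeR adjusted p = 0.0119). The Chga call was kept with each of the 6 libraries left out in turn, with log2 fold changes from 0.64 to 0.88 and edgeR adjusted p from 0.0148 to 0.0491.

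Scg3 encodes secretogranin III, which binds chromogranin A and cholesterol at the vesicle membrane. It was at 91.0, 96.5 and 99.1 CPM in controls 1, 2 and 3 and at 111, 127 and 121 CPM in Insm1 libraries 1, 2 and 3. The groups did not overlap, but the difference was small, 1.25-fold (log2 fold change 0.32, standard error 0.076, edgeR adjusted p = 0.0493). Of the 6 fits that each leave out a library, the Scg3 call held only in that without Insm1 library 1 (adjusted p = 0.0392), and a fit that is not robust gave 0.0568. Omitting Insm1 library 2 or 3 gave 0.152 and 0.152, and omitting control 1, 2 or 3 gave 0.15, 0.0667 and 0.119.

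Chgb encodes chromogranin B, the granin most like chromogranin A. It was at 21.8, 20.1 and 21.8 CPM in controls and at 21.7, 25.5 and 31.2 CPM in Insm1 libraries 1, 2 and 3. Insm1 library 1 lay within the controls, and the log2 fold change of 0.30 had a 95% interval from -0.023 to 0.62 (edgeR adjusted p = 0.332). Scg5 encodes 7B2, the chaperone that keeps the PC2 convertase inactive until it reaches the vesicle. It was at 63.3, 64.7 and 52.4 CPM in controls and at 63.4, 78.6 and 80.1 CPM in Insm1 libraries. Insm1 library 1 again lay within the controls, and the log2 fold change was 0.30 with a 95% interval from 0.041 to 0.56 (edgeR adjusted p = 0.216). Chga and Chgb were not shown to respond differently, since no test of the difference between the genes was made.

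Scg2 and Vgf, which encode the precursors of secretoneurin and of the VGF peptides, were near the lower limit of the data. Scg2 had 47, 21 and 51 reads in controls 1, 2 and 3 and 30, 25 and 77 reads in Insm1 libraries 1, 2 and 3, among 30017645 to 31645135 per library. Its log2 fold change was 0.14 with a 95% interval from -1.09 to 1.37 (edgeR adjusted p = 0.942), and it turned negative without control 2 or Insm1 library 3. Vgf had 18, 9 and 34 reads in controls and 18, 8 and 19 reads in Insm1 libraries. Its log2 fold change was -0.44 with a 95% interval from -1.87 to 0.98 (edgeR adjusted p = 0.809), and at this depth no change of either gene was detectable within those wide intervals. Among the 8 genes with promoter sequence, to which Vgf does not belong, Scg2 alone held both a whole CRE and the RE1 left arm. Whether either bears on the level of Scg2 was not tested.

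The processing enzymes differed widely in level. Cpe was at 377, 374 and 361 CPM in controls and at 405, 459 and 428 CPM in Insm1 libraries 1, 2 and 3. All 3 Insm1 libraries lay above all controls, which was so, in this direction, for 10.4% of all tested genes. At a log2 fold change of 0.22 (standard error 0.062, edgeR adjusted p = 0.0942) Cpe was not called, whereas DESeq2 called it (adjusted p = 0.0216). Pcsk2 was at 6.44, 2.99 and 3.88 CPM in controls and at 4.59, 3.63 and 3.65 CPM in Insm1 libraries. Control 1 was the highest library and the others overlapped, with a log2 fold change of -0.17, a 95% interval from -0.87 to 0.54 and an edgeR adjusted p of 0.863. The sign turned without control 1, to 0.21.

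Other processing enzymes were taken from a list of convertases and trimming or modifying enzymes. Of its 15 genes other than Pcsk2 and Cpe, 13 were tested and none was called in either direction, with a median log2 fold change of -0.14. All Insm1 libraries lay above all controls in 2 of the 13, including Furin, and below all controls in 3. Over all tested genes these shares were 10.4% and 11.8%, and 3.35% were called in either direction. Pcsk1, which encodes PC1/3, the other convertase of dense-core vesicles, had at most 0.518 CPM in any library and was not tested. Furin, the convertase of the constitutive pathway, was at 19.2 ± 0.770 and 22.8 ± 1.75 CPM (SD, n = 3; edgeR adjusted p = 0.344). The most abundant of the 13 were Mbtps1, a convertase of the Golgi that acts on membrane-bound factors, and Pam, which amidates the ends of peptides such as PACAP. Mbtps1 was at 141 ± 8.37 and 153 ± 11.9 CPM (SD, n = 3; edgeR adjusted p = 0.545) and Pam at 79.1 ± 4.93 and 71.7 ± 2.98 CPM (SD, n = 3; edgeR adjusted p = 0.437).

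Of the 2 further granin-like genes, Pcsk1n, which encodes the convertase inhibitor proSAAS, was at 12.9 ± 3.99 and 9.10 ± 1.70 CPM (SD, n = 3; edgeR adjusted p = 0.330). Gnas, whose locus also encodes the granin-like protein NESP55, was at 404 ± 8.21 and 406 ± 8.80 CPM (SD, n = 3; edgeR adjusted p = 0.960), and counts per gene do not separate its products. A list of 24 proteins of dense-core vesicle formation and release, 17 of them tested, had none called and a median log2 fold change of -0.13. Over all tested genes 3.35% were called. All Insm1 libraries lay above all controls in 2 of the 17 and below in 1, against 10.4% and 11.8% of all tested genes. The most abundant members of this list, the synaptotagmin Syt4 and the priming factor Cadps, were at 113 ± 9.25 and 96.6 ± 14.1 CPM (SD, n = 3; edgeR adjusted p = 0.324) and at 76.7 ± 17.3 and 73.0 ± 15.3 CPM (SD, n = 3; edgeR adjusted p = 0.904).

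Adcyap1 rose by the largest factor of the 10 genes, from a low level. It encodes PACAP, a neuropeptide that raises cyclic AMP through G protein-coupled receptors. It had 104, 92 and 102 reads in controls 1, 2 and 3 and 196, 231 and 212 reads in Insm1 libraries 1, 2 and 3. The controls lay within 2.99 to 3.37 CPM and the Insm1 libraries within 6.33 to 7.49 CPM, so the gap between the groups was wider than the range of either. This was a 2.13-fold rise (log2 fold change 1.09, standard error 0.22, edgeR adjusted p = 0.0239). With libraries left out the log2 fold change stayed between 1.03 and 1.15. The adjusted p passed 0.05 on omitting Insm1 library 2 (0.0958) or 3 (0.0834), or control 1 (0.0701) or 3 (0.0932).

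The receptors that PACAP acts on were not called. Adcyap1r1, which encodes the PAC1 receptor specific to PACAP, was at 106, 118 and 97.4 CPM in controls and at 100, 106 and 114 CPM in Insm1 libraries 1, 2 and 3. The groups overlapped throughout, with a log2 fold change of -0.0024 and a 95% interval from -0.20 to 0.19 (edgeR adjusted p = 0.994). Vipr1 and Vipr2, the receptors shared with the related peptide VIP, were at 5.87 ± 0.508 and 6.39 ± 2.13 CPM and at 2.41 ± 0.463 and 2.61 ± 1.10 CPM (SD, n = 3), with edgeR adjusted p of 0.882 and 0.927. Vip itself had no read in any of the 6 libraries.

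Of 28 neuropeptide precursors other than Adcyap1, 27 were in the table, 7 had enough counts to be tested and none was called. Over all tested genes 3.35% were called. The opioid peptide precursor Penk was at 2.43, 2.99 and 2.38 CPM in controls and at 3.01, 5.09 and 5.72 CPM in Insm1 libraries. Its groups lay apart by a narrow margin (log2 fold change 0.82, standard error 0.31, edgeR adjusted p = 0.196), as did, in this direction, those of 10.4% of all tested genes. Pomc, the precursor of melanocortins and beta-endorphin, was at 1.84 ± 0.0437 and 2.01 ± 0.142 CPM (SD, n = 3; edgeR adjusted p = 0.905).

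Sstr2, the highest of the 10 genes per kilobase of exon, rose with Insm1. It encodes a somatostatin receptor that couples to inhibitory G proteins, and it is known from the intermediate zone of the embryonic cortex, where newborn neurons migrate. It was at 346, 417 and 336 CPM in controls 1, 2 and 3 and at 486, 559 and 607 CPM in Insm1 libraries 1, 2 and 3. Control 2 was the highest control and still lay below every Insm1 library. The groups differed by a log2 fold change of 0.59 (standard error 0.10, edgeR adjusted p = 0.0137). It was from 0.51 to 0.70 with libraries left out, and omitting Insm1 library 2 (adjusted p = 0.0564), Insm1 library 3 (0.0522) or control 3 (0.0654) ended the call.

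The other somatostatin receptors were far lower. Sstr3 was at 24.4, 24.3 and 25.0 CPM in controls and at 17.4, 30.3 and 27.5 CPM in Insm1 libraries, which lay on either side of the controls (log2 fold change 0.030, 95% interval from -0.38 to 0.44, edgeR adjusted p = 0.965). Sstr1 was at 0.866 ± 0.153 and 1.11 ± 0.536 CPM (SD, n = 3; edgeR adjusted p = 0.808), Sstr4 had too few reads to be tested and Sstr5 had none. The ligand gene Sst, a marker of a class of interneurons in later cortex, was at 1.36 ± 0.721 and 0.744 ± 0.256 CPM (SD, n = 3; edgeR adjusted p = 0.477).

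**Figure D3:**
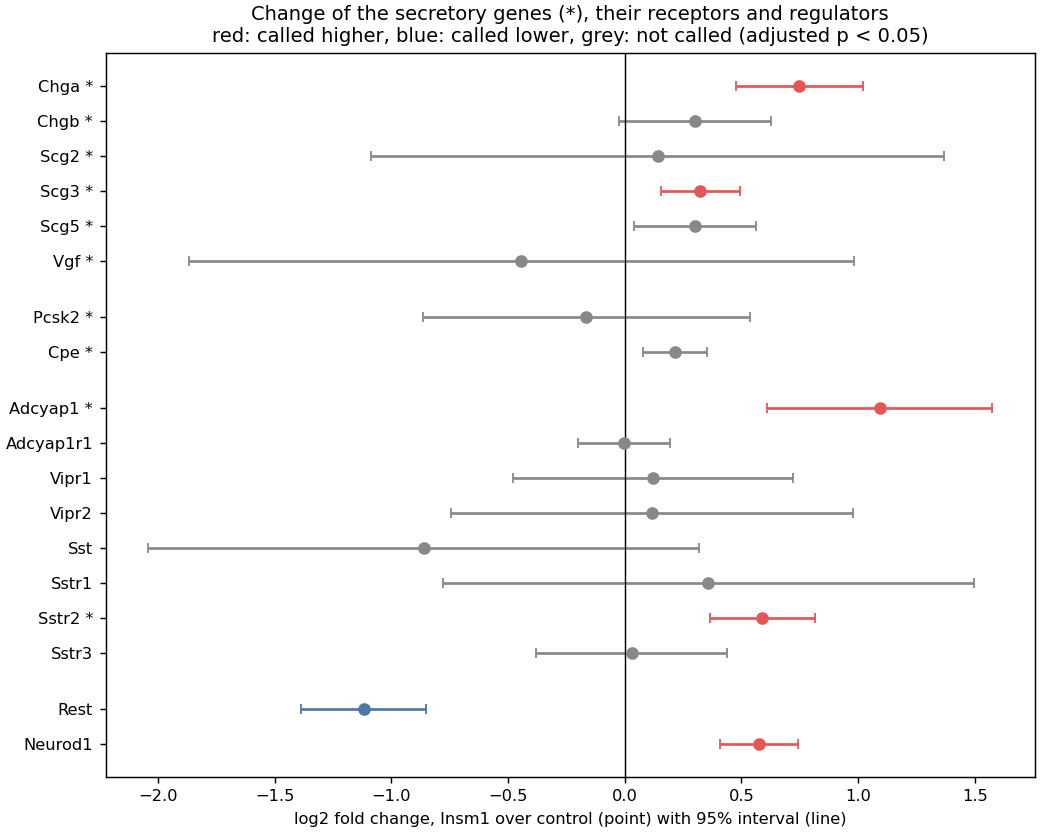
Log2 fold change of Insm1 over control libraries (horizontal axis; points) with 95% intervals (lines) for the 10 secretory genes (asterisks), receptors, Sst and regulators, from edgeR's quasi-likelihood fit. Chga, Scg3, Adcyap1, Sstr2 and Neurod1 were called higher (red), Rest lower (blue), and the intervals of Scg2 and Vgf are the widest among the secretory genes.

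Among transcription factors tied to neuroendocrine genes, Rest fell and Neurod1 rose. Rest, the repressor that binds RE1, fell 2.17-fold, from 48.3, 48.1 and 39.3 CPM in controls 1, 2 and 3 to 22.3, 19.1 and 21.1 CPM in Insm1 libraries 1, 2 and 3. The groups lay far apart, with a log2 fold change of -1.12, a standard error of 0.12 and an edgeR adjusted p of 0.00386, and the call held in all 6 fits that omit a library (adjusted p from 0.00305 to 0.0195).

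Neurod1, a bHLH factor of neurons and endocrine cells, rose 1.49-fold, from 322 ± 29.1 to 479 ± 24.7 CPM (SD, n = 3; edgeR adjusted p = 0.00559), and shares exon sequence with Cerkl. Whether the change of any regulator bears on the secretory genes was not tested.

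Markers of cell types moved with the groups as well. The 8 projection neuron markers summed to 6781, 6458 and 6670 CPM in controls 1, 2 and 3 and to 7505, 8085 and 8117 CPM in Insm1 libraries 1, 2 and 3. This was a ratio of means of 1.19, beside 2.13-fold for Adcyap1, 1.68-fold for Chga, 1.25-fold for Scg3 and 1.16-fold for Cpe. Of these markers 4 rose, none fell and 4 were not called, and 7 of the 8 log2 fold changes were positive and 1 negative. Over all tested genes 1.23% were called higher and 2.12% lower. The 8 apical progenitor markers summed to 2863 to 3409 CPM in controls and to 2221 to 2676 CPM in Insm1 libraries, with 4 lower and none higher, and the groups did not overlap. The sums of the 6 basal progenitor markers overlapped, from 1214 to 1381 CPM against 1148 to 1501 CPM, with 2 markers higher, Nhlh1 (log2 fold change 0.96, edgeR adjusted p = 0.00525) and Mfng (0.34, 0.0337), none lower and 4 not called. The interneuron sums were lower in every Insm1 library (5.53 to 8.21 CPM) than in every control (8.37 to 16.3 CPM), with none of the 6 tested markers called. The part of cell makeup in the secretory genes was not tested.

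**Figure D4:**
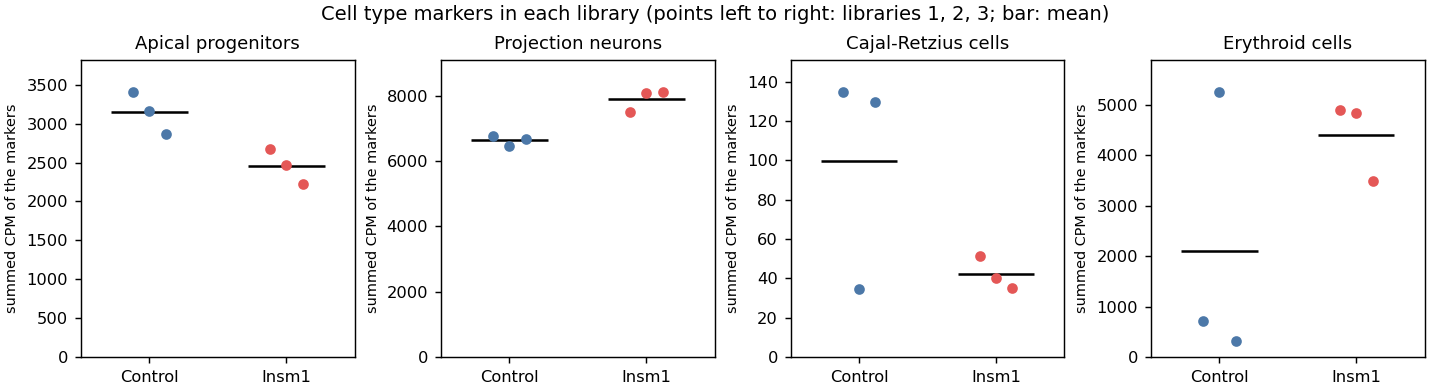
Summed TMM-scaled CPM of marker lists (vertical axes, each from 0) in control (blue) and Insm1 (red) libraries; bars are means of 3 libraries. Projection neuron sums are higher and apical progenitor sums lower in all Insm1 libraries, while control 2 sits with the Insm1 libraries in Cajal-Retzius and erythroid markers.

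Control 2 stood with the Insm1 libraries in its erythroid and Cajal-Retzius sums. It was at 128 CPM for Chga against at least 196 CPM in the Insm1 libraries, at 2.99 CPM for Adcyap1 against at least 6.33 CPM and at 96.5 CPM for Scg3 against at least 111 CPM. For Sstr2 it was at 417 CPM, above the other controls at 346 and 336 CPM and below the lowest Insm1 library at 486 CPM. The part of blood and Cajal-Retzius content in the 4 changes was not tested. Without control 2, Chga, Adcyap1 and Sstr2 were called, with log2 fold changes of 0.74, 1.04 and 0.70. The number of members called higher was 4 with all libraries, 4 without Insm1 library 1 and 3 without control 2. It was 2 without control 1, and Chga was the 1 member called on omitting control 3, Insm1 library 2 or Insm1 library 3.

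Levels of different genes were compared per length. In CPM per kilobase of exon (GENCODE M21), control means ran from Sstr2 (171 ± 20.7) and Cpe (142 ± 3.20) through Chga (46.9 ± 7.75), Scg5 (38.3 ± 4.30), Scg3 (34.9 ± 1.51) and Chgb (7.74 ± 0.367) to Adcyap1 (0.854 ± 0.0556), Pcsk2 (0.561 ± 0.227), Scg2 (0.513 ± 0.211) and Vgf (0.223 ± 0.139; SD, n = 3 for each). Over the 3 controls the values of Chga and Scg5, of Scg5 and Scg3 and of Adcyap1 and Pcsk2 overlapped. So did those of Pcsk2 and Scg2 and of Scg2 and Vgf. Within each control library, however, Chga lay above Scg5, Adcyap1 above Pcsk2 and Scg2 above Vgf. Scg5 lay above Scg3, and Pcsk2 above Scg2, in controls 1 and 2 but not in control 3. No test of levels between genes was made. In CPM not divided by length, Sstr2 and Cpe made up 70.0% of the sum of the 10 genes in controls and 68.6% in Insm1 libraries.

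The authors' deposited TPM gives another order, in which Chga (114 ± 17.5 TPM) stands above Cpe (32.8 ± 0.342 TPM; SD, n = 3) and Pcsk2 is last (0.146 ± 0.0585 TPM), and only Sstr2 and Adcyap1 keep their place. The length behind those TPM values was the genomic span of each gene, introns included, to within 1% for 95.4% of 10903 genes, against 0.844% for summed exons. Pcsk2 spans 270130 bases of which 7910 are exon, and Cpe 100513 bases of which 2609 are exon, whereas Chga spans 10060 bases of which 2756 are exon.

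**Figure D5:**
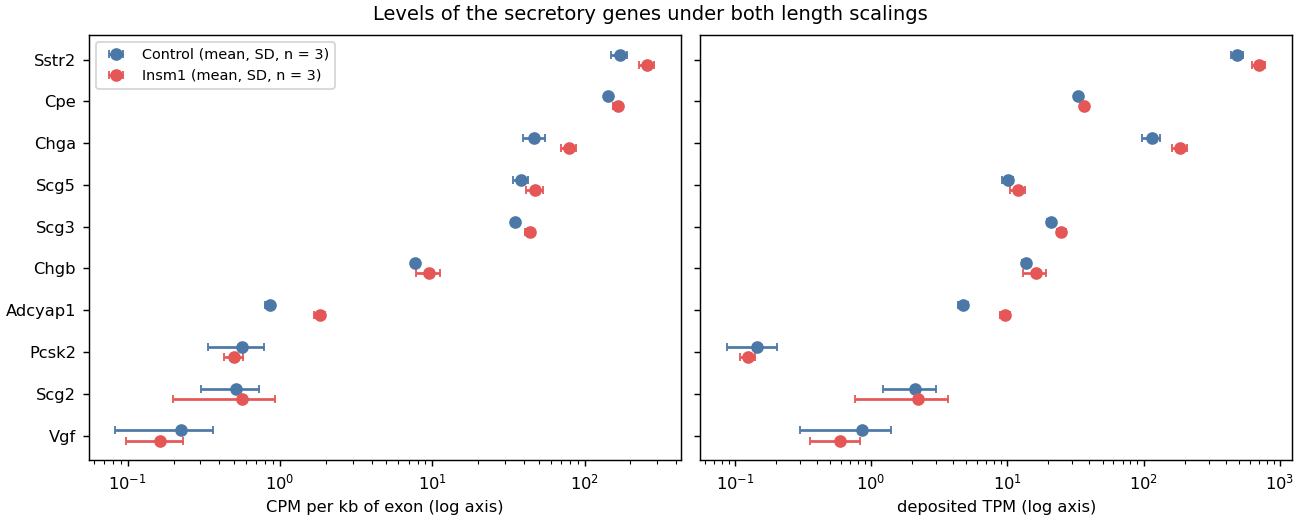
Mean level with SD (n = 3; log axes) of the 10 genes in control (blue) and Insm1 (red) libraries, per kilobase of exon (left) and as deposited TPM (right). Genes are ordered by their control level per kilobase of exon, and Cpe, Scg5 and Pcsk2, which have long introns, stand lower in the TPM order.

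On GRCm38 (GENCODE M21) all 10 are protein-coding genes whose exons overlap no other gene of the table. Chga (ENSMUSG00000021194) lies at chr12:102554969-102565028 on the plus strand, Sstr2 (ENSMUSG00000047904) at chr11:113619342-113626028 on the plus strand, Scg3 (ENSMUSG00000032181) at chr9:75643189-75684056 on the minus strand and Adcyap1 (ENSMUSG00000024256) at chr17:93199017-93206537 on the plus strand.

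The genes whose profile over the 6 libraries was most like that of Chga were taken from 10308 genes with a mean of at least 5 CPM, by the root mean square difference between log2 CPM profiles centred on their means. The nearest were the Eph receptor gene Ephb6 (0.058), the synapsin gene Syn2 (0.075), Pdk2 (0.095), Arg2 (0.12) and Ust (0.12), in log2 units over 6 libraries. Ephb6 was at 56.0, 44.5 and 40.9 CPM in controls 1, 2 and 3 and at 68.5, 84.1 and 78.8 CPM in Insm1 libraries 1, 2 and 3, in the same order of libraries as Chga. The other secretory genes lay farther from Chga, the nearest being Sstr2 at 0.20, Adcyap1 at 0.22, Scg5 at 0.25 and Scg3 at 0.28. Since the 5 genes above were picked as the nearest of 10308, this does not show that the members fail to follow Chga.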

How the data were processed

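Per the labels' protocols, cDNA was made with a poly-dT primer and template switching, amplified, sheared and sequenced as single 75-base reads, so reads carry no strand mark and no molecular identifiers. TopHat2 2.0.13, Bowtie and bcl2fastq are named with GRCm38 per the submitters' processing notes; the sources used here do not name the counting program or its annotation. The authors deposited whole-number counts per Ensembl gene, with library totals from 30017645 to 31645135, and TPM values of the same genes.

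The members and lists were chosen with earlier results of these data known. Genes were kept by filterByExpr (13560), scaled by TMM and compared between groups in R 4.3.3 by the two-sided quasi-likelihood test of edgeR 4.0.16, robust setting, with Benjamini-Hochberg adjustment over all tested genes and calls below 0.05. Standard errors come from the F statistic. Named genes are the 10 members, Insm1, called genes of each pathway list (with none called, the 2 most abundant), the receptors with Sst and Vip, and 5 genes most like Chga, with profiles at a prior count of 2. A called gene of the regulator list is not reported here. Pcsk1, Furin, Nhlh1 and Mfng were named after their values were seen. The design set levels between genes by TPM, and CPM per kilobase of exon was added because of the lengths found. The fit was checked on simulated data. Alternatives were other scalings and filters, DESeq2 1.42.0, limma 3.58.1 on log2(TPM + 1) and log2(TPM + 0.1), a fit that is not robust, the replicate block and each library left out.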

Additional observations from a re-analysis of the deposited data

How the results depend on the processing

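No direction changed among the 4 genes called higher under any alternative run. Members called higher numbered 2 with the replicate block, which ended the calls of Adcyap1 (edgeR adjusted p = 0.0711) and Scg3 (0.0793), 1 with limma on log2(TPM + 1) and 1 on log2(TPM + 0.1), and from 1 to 4 with libraries left out, with 0 lower throughout. Genes of the whole table called higher and lower numbered 413 and 591 by DESeq2, 14 and 46 by limma on log2(TPM + 1) and 15 and 49 on log2(TPM + 0.1). With libraries left out they ran from 43 to 227 and from 73 to 418. Of the pathway lists 1 gene was called lower with the replicate block and with limma at either pseudocount, and from 1 to 2 with libraries left out. With CPM per kilobase of exon 2 of 10 members kept their TPM rank. Replicate numbers showed no pairing of the libraries (correlations of deviations -0.003, -0.022 and -0.076 for numbers 1, 2 and 3). Between libraries of unlike numbers they ran from -0.052 to 0.076, and such correlations do not exclude a pairing. The block gave 115 genes higher and 216 lower over the table. Signs that turned belonged to genes with no call: Adcyap1r1 (0.0012 with RLE scaling, 0.0012 with DESeq2, 0.0054 with no filter), Gnas (-0.0031 with upper-quartile scaling, -0.0547 and -0.0556 with limma, -0.0015 with a 5 CPM filter), Scg2 (-0.0043) and Vipr2 (-0.0088) with limma on log2(TPM + 0.1), and Sstr3 (-0.0712 and -0.0748 with limma, -0.0065 with the block). With libraries left out the log2 fold changes ran from -0.062 to 0.076 for Adcyap1r1, -0.23 to 0.11 for Cadps, -0.0083 to 0.025 for Gnas, -0.38 to 0.21 for Pcsk2, -0.53 to 0.42 for Scg2, -0.014 to 0.68 for Sstr1, -0.13 to 0.24 for Sstr3, -0.79 to 0.15 for Vgf, -0.10 to 0.36 for Vipr1 and -0.18 to 0.41 for Vipr2. The cause was not tested.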
